A study of Mus musculus with 8 samples.

Results

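A segment of mouse chromosome 9 was measured in lumbar dorsal root ganglia (DRG) of a Fabry disease model, through the array probes whose positions lie in chr9:40000000-46000000 of the genome build mm9. The array had 211 probes there. Probes named only by a genome interval (69) and those of Scn2b, Scn4b, Grik4, Rps25, Sc5d and of genes starting with Atp5 (12 together) were left out, which left 130 probes of the 55681 on the array, with 88 gene or transcript names in the files and 13 probes without a name. The segment had been chosen on the same contrast that is described here, because genes that differed between the groups lay close together in it, so all differences and counts below are given as descriptions, with no test, and support nothing by themselves.

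Male alpha-Gal A(-/0) mice, called FD below, lack the lysosomal enzyme alpha-galactosidase A and were compared with male wildtype mice. Both groups were 20 to 24 weeks old, were labelled C57BL/6J, with no treatment named in the labels, and each had 4 samples, each made from the pooled ganglia L3 to L5 of 2 mice. According to the methods of the study, the FD and wildtype mice of the arrays came from separate inbred colonies. Genotype and colony therefore cannot be told apart in any array difference below. To control for the colony, the study ran RT-qPCR on backcrossed FD mice, and its outcome is not reported here. A probe's signal depends on how well its letters match the transcript as well as on the RNA level, and whether the colonies differ in sequence under any probe was not tested. All 8 samples lay on 1 slide of Agilent arrays in 1 color. The probe of Gla, the targeted gene, had a log2 signal of 16.51 to 16.71 in FD and 16.49 to 16.72 in wildtype DRGs (log2 difference -0.03, SE 0.0754). Whether the disrupted allele still gives this part of the transcript was not given in the sources used here, so this probe checks nothing about the labels.

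Neighboring genes on a chromosome need not share a function, and this segment holds genes of many kinds. Tmem25 encodes a membrane protein of neurons with immunoglobulin-like domains. Sorl1 encodes a sorting receptor that keeps the amyloid precursor protein away from the compartments in which it is cleaved, and Bace1, the gene of the beta-secretase that makes the first cut, lies in the same segment. The genes of the CD3 chains of the T cell receptor complex, several immunoglobulin-like adhesion proteins and proteins of cilia are also found here. DRGs hold the cell bodies of sensory neurons together with glia, vessels and resident immune cells, and in such bulk samples fewer cells of a type and less RNA per cell cannot be told apart.

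Each probe covers 60 bases of a transcript. The first 30 bases of those on which the results turn are shown, 5′ to 3′ as given in the files, because several genes had probes that disagreed and the letters tell the probes apart. No letters are in capitals. Which exon or untranslated region a probe lies in was not assessed, and all positions are those of the files on mm9.
Tmem25, chr9:44601943-44602002, minus strand: tactttttaaaaagcaacctgaaaacgact
Sorl1 first probe, chr9:41772997-41773056, minus strand: tataacttcgatcgcctcggctaggtttcc
Sorl1 second probe, chr9:41776572-41776631, minus strand: gttgatggtttattttaaaagatgcacttt
Nlrx1 first probe, chr9:44061455-44061514, minus strand: ggtgtctgagtactggtcagtgatccttag
Nlrx1 second probe, chr9:44076064-44076123, minus strand: gagacgcaggcctccttccctccgggccac
C2cd2l first probe, chr9:44117320-44117379, minus strand: tttcttcacctctaaaataaatgaaagtgg
C2cd2l second probe, chr9:44118315-44118374, minus strand: gttgggagatgatgatgtccattgctgtgt
Ift46 first probe, chr9:44598913-44598972, plus strand: agcttccagagacacacagactgctctgtc
Ift46 second probe, chr9:44600737-44600796, plus strand: ggacctcattgcacaggcttgattgactcc
Jhy, chr9:40703592-40703651, minus strand: gctgctttcaaagtccttcacatcgtctag
Crtam, chr9:40781010-40781069, minus strand: tgacaagaggcttcctgactaaccatgagc
6720432D03Rik, chr9:41611352-41611411, minus strand: tctgcaggcaggtctgtttttgcaatgcag

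Of the 130 probes, 93 were well above background on all 8 arrays and were compared, 16 were so on 1 to 7 arrays and 21 on none. The 93 probes came from 64 named genes, with the remainder unnamed. A probe was called when its Benjamini-Hochberg adjusted p in limma, taken over all 29432 probes compared on the array, was under 0.05. In the segment 14 probes of 13 genes were called (15.1%), against 904 probes or 3.07% on the whole array. Of these, 4 were higher in FD DRGs, where the whole array had 1.96%, and 10 were lower, where it had 1.11%. Without FD sample 4 the count in the segment was 9. The values of the 4 FD samples lay entirely above or below those of the 4 wildtype samples for 31 of the 93 probes (33.3%), against 13.4% on the array. Of these 31 probes, 10 were higher (8.30% on the array) and 21 were lower (5.10% on the array). As the segment was picked for its calls, nothing is read from these shares.

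**Figure D1:**
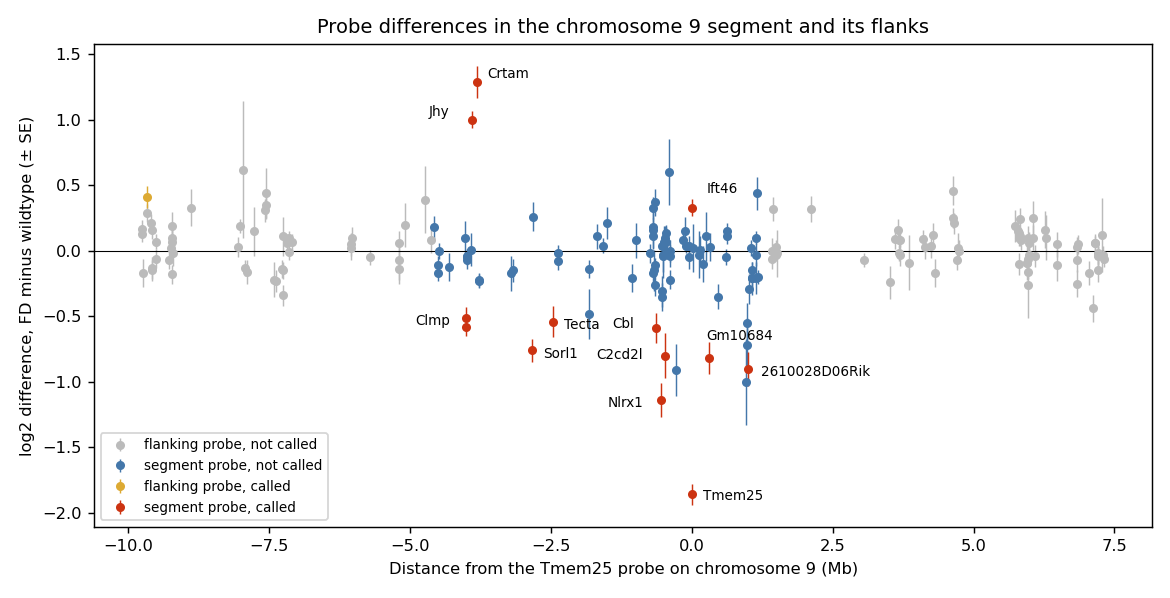
Log2 difference between FD and wildtype DRGs (vertical axis, FD minus wildtype, bars are SE from limma, 4 samples per group) for the compared probes, against their distance in Mb from the Tmem25 probe. Red points are called probes of the segment and blue points its other probes, grey and yellow points lie in the flanks of 6 Mb, where 1 probe is called. Tmem25 lies lowest at -1.86 and Crtam highest at 1.29.

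The called probes were spread over 5.01 Mb, from a probe of Clmp that starts at position 40590634 to one of 2610028D06Rik that ends at 45605509. In the first 2 Mb of the segment 5 of 20 compared probes were called, in the next 2 Mb (from position 42000000) 2 of 21 and in the last 2 Mb (from 44000000) 7 of 52. The median log2 difference of the 93 probes was -0.0376, beside 0.0186 for all compared probes, and the median of its absolute value was 0.153, beside 0.101. Of the 93 differences, 53 were below 0 and 38 above it after rounding. The difference was below -0.3 or above 0.3 for 26 of the 93 probes. The 90th percentile of its absolute value was 0.75, beside 0.312 for all compared probes.

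In the 6 Mb before the segment 1 of 48 compared probes was called (2.08%), and in the 6 Mb after it 0 of 65, while 26 of 1161 (2.24%) were called on chromosome 9 outside the segment as a whole. The probes nearest the edges are given for comparison. Just inside the first edge Zfp202, a zinc finger gene, and Scn3b, which encodes a beta subunit of sodium channels, were at 0.18 (SE 0.0889) and -0.11 (SE 0.072), and the nearest probes outside it were at 0.08 (SE 0.0966) and 0.39 (SE 0.255). Just inside the last edge Pafah1b2, a subunit of an enzyme that inactivates platelet-activating factor, was at -0.20 (SE 0.0513) and an unnamed transcript at 0.44 (SE 0.126), and outside it the kinase gene Sik3 had probes at 0.00 (SE 0.0986) and -0.06 (SE 0.0798). None of these 8 probes was called.

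**Figure D2:**
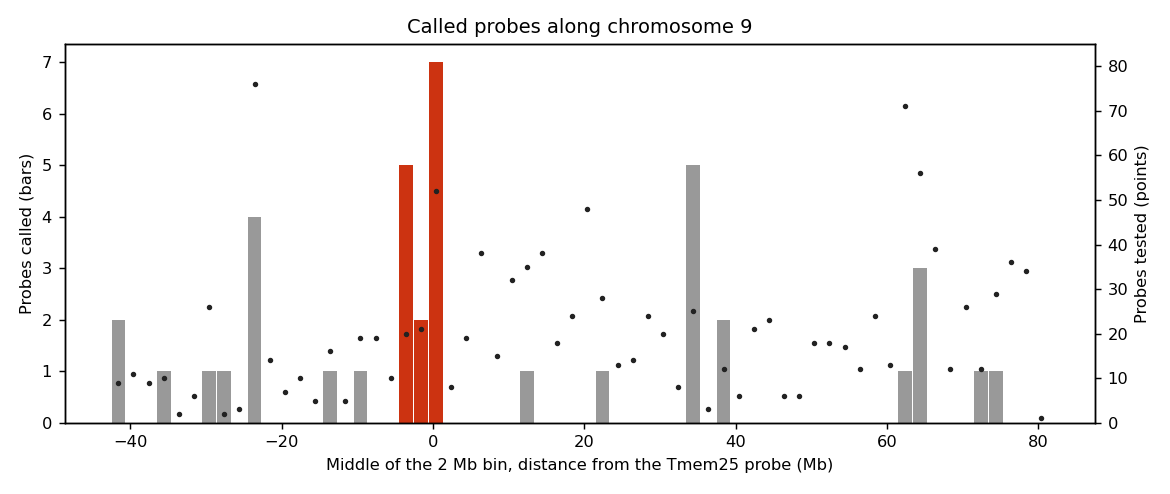
Called probes in bins of 2 Mb along chromosome 9 (bars, left axis) with the number of compared probes in each bin (points, right axis), placed by the distance of the bin from the Tmem25 probe. The 3 red bars are the bins of the segment with 5, 2 and 7 called probes, and another bin far from the segment also reaches 5.

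Within the groups the probes of the segment varied about as much as other probes. Their median SD was 0.0868 in FD and 0.129 in wildtype samples, and over all compared probes it was 0.0936 and 0.139. Over the 14 called probes wildtype sample 2 had the lowest value of its group 9 times, and wildtype sample 4 did so 5 times. Wildtype sample 1 had the highest value 6 times, and wildtype sample 3 did so 5 times. How much each sample added to the spread was not measured. In the first row of the slide 3 of the arrays carried FD and 1 carried wildtype samples, and in the second row this was reversed. In all 14 called probes the groups did not overlap, so the direction had to be the same in both rows. That sameness therefore says nothing about an effect of the row. With the row as a block 15 probes of the segment were called. Of these, 12 were among the 14, and Tecta (-0.59) and Ift46 (0.29) lost their calls.

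Among surface proteins with immunoglobulin-like domains or other adhesion roles, 12 probes of 10 genes were compared, of which 1 was called higher and 4 were called lower. Beside each such count here and below stand the array's shares of 1.96% called higher and 1.11% called lower. Nothing is read from the counts of the segment, as it was picked for its calls. Tmem25 had the largest difference of the compared probes. Its log2 signals were 12.41, 12.45, 12.31 and 12.37 in the 4 FD samples and 14.43, 14.07, 14.24 and 14.22 in the 4 wildtype samples. The groups were far apart, with no FD sample within 1 log2 unit of any wildtype sample, and signal in FD DRGs stayed well above background. The log2 difference was -1.86 (SE 0.0796), a 3.62-fold lower signal, and it was -2.04 and -1.81 within the first and the second row of the slide.

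Clmp, which encodes an adhesion protein of epithelial cell junctions, was lower in FD DRGs in both of its probes. The first probe gave 10.06, 10.15, 9.82 and 9.91 in FD and 10.47, 10.41, 10.51 and 10.58 in wildtype samples (difference -0.51, SE 0.0818). The second, about a kilobase away, gave 10.50, 10.51, 10.32 and 10.28 in FD and 11, 10.91, 11.03 and 11 in wildtype samples (-0.58, SE 0.0703). Neither probe had overlapping groups, and FD samples 1 and 2 were above FD samples 3 and 4 in both. The call of the first probe was lost without FD sample 4.

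Crtam encodes a receptor of activated T and natural killer cells that binds the adhesion protein Cadm1. It was the gene with the largest positive difference of the segment, with log2 signals of 7.03, 6.60, 6.51 and 6.49 in FD and 5.44, 5.46, 5.33 and 5.26 in wildtype DRGs. The groups were more than 1 log2 unit apart (difference 1.29, SE 0.122), and FD sample 1 was above the other FD samples. These were dim signals, and with the background corrected by normexp the difference was 0.63, though still called. Of a list of T cell markers outside the segment, 7 of the 9 genes on the array were compared and 0 were called, with a median difference of 0.0483 and mean levels of 7.85 to 8.07 in FD and 7.87 to 8.02 in wildtype samples.

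Tecta, the gene of alpha-tectorin of the inner ear's tectorial membrane, had signals of 6.28, 6.75, 6.75 and 6.47 in FD and 7.16, 6.98, 7.24 and 7.01 in wildtype DRGs. Its groups did not overlap (difference -0.54, SE 0.117), but the call was lost without any single one of the 8 samples, and the difference was -0.34 with normexp. Mcam, an adhesion protein of vessel walls, had probes that disagreed in direction, at 0.37 (SE 0.103) and -0.11 (SE 0.0573), both with separate groups and neither called. Dscaml1, a neuronal adhesion gene, had the next largest negative difference in the list after Tmem25, at -1.0 (SE 0.328), but its FD values of 4.85 to 6.19 overlapped the wildtype values of 5.81 to 7.15. Thy1, a surface glycoprotein of neurons, was at -0.02 (SE 0.0705). The median over the 10 genes, with the brightest probe of each, was -0.0623.

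**Figure D3:**
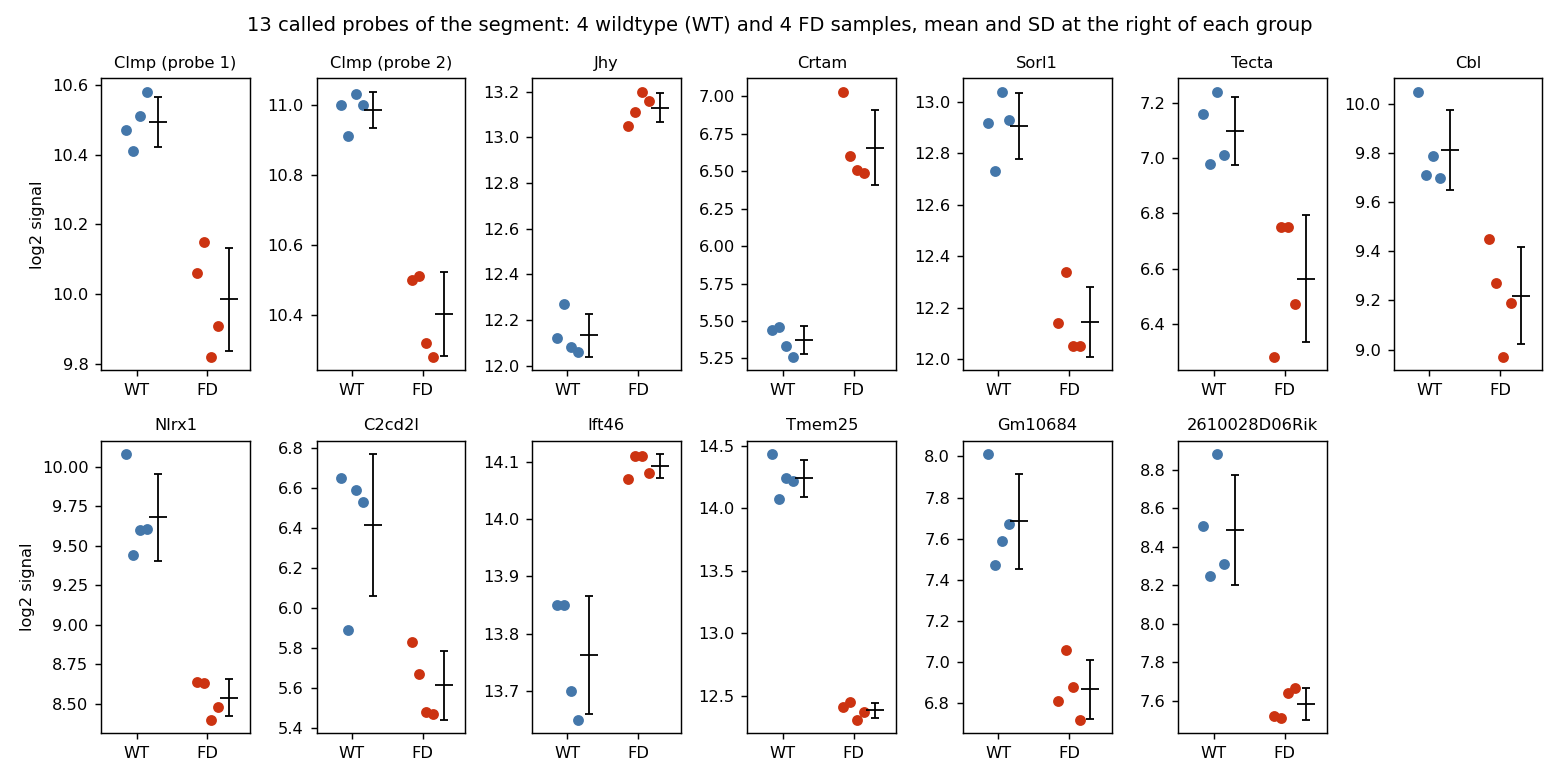
Log2 signal (vertical axes, a separate range in each panel that does not start at 0) of 13 called probes in 4 wildtype (WT, blue) and 4 FD (red) samples, with the mean and SD of each group as a bar at its right. In every panel the groups are apart, narrowly in C2cd2l, where wildtype sample 2 at 5.89 lies close to FD sample 1 at 5.83.

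Among genes of membrane traffic and the secretory pathway, 19 probes of 13 genes were compared, 0 were called higher and 2 were called lower. The median over genes, with the brightest probe of each, was 0.00124. For Sorl1 and C2cd2l the brightest was the second probe, so their called probes are not in this median. Sorl1 was measured by probes that went opposite ways. The first had log2 signals of 12.14, 12.34, 12.05 and 12.05 in FD and 12.92, 12.73, 13.04 and 12.93 in wildtype DRGs, with every FD sample below every wildtype sample (difference -0.76, SE 0.0900, 1.69-fold lower). The second, which lies further from the 3′ end on the minus strand, gave 13.93, 13.98, 13.93 and 13.83 in FD and 14.00, 13.54, 13.61 and 13.47 in wildtype samples. Here wildtype sample 1 lay above all FD samples and the other wildtype samples below them. The difference was 0.26 (SE 0.111) and was not called, but without wildtype sample 1 it was 0.37 and was called, and with the row of the slide as a block it was 0.12 and was not.

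C2cd2l encodes a lipid transfer protein at contacts between the endoplasmic reticulum and the plasma membrane. Its first probe had dim signals of 5.83, 5.67, 5.48 and 5.47 in FD and 6.65, 5.89, 6.59 and 6.53 in wildtype samples. Every FD sample was below every wildtype sample, by little in the case of wildtype sample 2 (difference -0.80, SE 0.169). The call was lost on leaving out any single sample other than wildtype sample 2, and the difference was -0.42 with normexp. Its second probe was at 0.10 (SE 0.0875).

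Hyou1, a chaperone of the endoplasmic reticulum, had the largest difference of the list that was not called, at 0.60 (SE 0.251), with FD sample 4 at 8.16 and the other FD values of 7.06 to 7.23 close to the wildtype values of 6.43 to 7.11. Vps11, a core subunit of the complexes that tether endosomes and lysosomes, was at -0.01 (SE 0.054), and Hspa8, the constitutive heat shock protein that uncoats clathrin vesicles, was between -0.07 and -0.04 in its 3 probes.

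Bace1 had a difference of -0.21 (SE 0.0635) with separate groups, 13.06 to 13.19 in FD and 13.24 to 13.45 in wildtype samples, and was not called. Of the other genes that make, cut or clear the amyloid precursor protein, a list that also holds Sorl1 and Bace1, all 23 genes were compared with 32 probes, of which 1 was called higher and 1 lower. The lower one was the first Sorl1 probe. The higher one was a probe of Psenen, a subunit of gamma-secretase, at 0.28 (SE 0.055), while the other Psenen probe was at 0.20 (SE 0.0612) and was not called. App itself was at -0.02 (SE 0.0746), and the median of the list was -0.0206, beside 0.0186 for all compared probes.

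Of the genes with immune roles, 7 probes of 5 genes were compared, and 2 were called lower and 0 higher. The median over genes, with the brightest probe of each, was -0.355, and for Nlrx1 the brightest was the called first probe. Nlrx1, a mitochondrial member of the NOD-like receptor family, had the second largest negative difference of the called probes. Its first probe gave 8.64, 8.63, 8.40 and 8.48 in FD and 10.08, 9.44, 9.60 and 9.61 in wildtype DRGs, with wildtype sample 1 highest and the groups well apart (difference -1.14, SE 0.132, 2.21-fold lower). The second probe gave 8.01, 7.92, 7.87 and 8.11 in FD and 7.93, 7.93, 7.87 and 8.00 in wildtype samples, which is nearly the same in both groups (0.04, SE 0.0672). Within the rows of the slide the first probe differed by -1.52 and -1.07.

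Cbl, an E3 ubiquitin ligase that ends signaling from receptor tyrosine kinases and the T cell receptor, had signals of 9.45, 9.27, 8.97 and 9.19 in FD and 10.05, 9.71, 9.79 and 9.70 in wildtype DRGs. The groups did not overlap (difference -0.59, SE 0.115), and the call was lost without FD sample 2, 3 or 4 and without wildtype sample 2, 3 or 4. Ubash3b, a phosphatase that acts in the same signaling, was at -0.22 (SE 0.0533) and -0.23 (SE 0.0529) in its 2 probes, each with separate groups and neither called. Il10ra, a receptor chain for interleukin 10 found on macrophages, was at -0.35 (SE 0.0935), with FD values of 7.25 to 7.62 below wildtype values of 7.73 to 7.94, and was not called.

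The CD3 genes gave little. Cd3e was at -0.10 (SE 0.135) with overlapping groups, and Cd3d and Cd3g were well above background on 6 and 3 of the 8 arrays and were not compared. Markers of macrophages, a list of 8 genes compared with 0 called, had a median of -0.139. Mean levels were 9.34 to 9.81 in FD and 9.49 to 9.83 in wildtype samples. The genes did not move together. Cd68 was at 0.51 (SE 0.117) with separate groups, while the other genes were below 0, down to -0.46. The part of cell content in the values of Il10ra and the other immune genes was not tested.

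A list of genes of cilia and the cytoskeleton, which does not hold Jhy, had 9 compared probes of 6 genes, of which 1 was called higher. Ift46, a subunit of the particle that carries cargo along cilia, lies next to Tmem25 on the opposite strand. Its first probe gave 14.07, 14.11, 14.11 and 14.08 in FD and 13.85, 13.85, 13.70 and 13.65 in wildtype samples, a small difference with tight groups (0.33, SE 0.0633). The call was lost without any single FD sample and without wildtype sample 3 or 4. The second probe, which lies between the first and the Tmem25 probe, went the other way. It gave 5.25, 3.59, 5.10 and 4.95 in FD DRGs, where 2 of 4 arrays were above background, and 7.15, 7.14, 7.29 and 7.31 in wildtype DRGs, and was not compared for that reason.

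Jhy, named 4931429I11Rik in the files, is needed for motile cilia of the brain's ependyma. It had log2 signals of 13.05, 13.11, 13.20 and 13.16 in FD and 12.12, 12.27, 12.08 and 12.06 in wildtype DRGs, so that every FD sample was above every wildtype sample by more than 0.7 (difference 1.0, SE 0.0655, 2.0-fold higher). It was 1.0 and 1.02 within the rows of the slide. Cep164, a protein of the appendages that anchor centrioles, was lower in all of its 3 probes, at -0.72 (SE 0.206), -0.55 (SE 0.154) and -0.29 (SE 0.113). The positions of the first and the second overlap, so these are not separate measurements of the transcript. None of the 3 was called although the groups were separate in each, and with the row of the slide as a block the first and the second were called at -1.02 and -0.76. Tagln, a marker of smooth muscle, was at -0.21 (SE 0.123), beside a median of -0.118 for 6 other genes of smooth muscle and pericytes, whose mean levels were 8.70 to 9.01 in FD and 8.88 to 9.31 in wildtype samples.

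Among the genes of metabolism, Abcg4, a transporter that passes cholesterol out of cells, was at -0.35 (SE 0.106), -0.31 (SE 0.12) and -0.04 (SE 0.164) in its 3 probes, none of them called.

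The list of the ubiquitin system does not hold Cbl, which was called lower and is counted with the immune genes. Of the genes of chromatin, transcription and RNA (6 compared) and of that list (4 compared), 0 probes were called in either direction. The medians were 0.0413 and 0.0622. The largest difference there was in Bcl9l, a coactivator in Wnt signaling, which had signals of 6.39, 6.44, 6.47 and 5.89 in FD and 7.69, 6.80, 7.29 and 7.02 in wildtype samples. The groups were apart (difference -0.91, SE 0.201) without passing the threshold, and it was called at -1.21 with the row of the slide as a block and at -0.60 with normexp. The ubiquitin-specific protease Usp2 was at 0.16 (SE 0.147), the ubiquitin ligase gene Rnf214 at -0.21 (SE 0.128) and -0.15 (SE 0.0647), and Kmt2a, a histone methyltransferase, at 0.02 (SE 0.183). Fxyd2 and Fxyd6, regulators of the sodium pump, had differences of 0.11 (SE 0.0552) and 0.15 (SE 0.0631) for the 2 Fxyd2 probes and -0.05 (SE 0.0606) for Fxyd6, and 0 of these 3 probes were called.

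Transcripts without a known role also differed. Gm10684 had 6.81, 7.06, 6.88 and 6.72 in FD and 8.01, 7.47, 7.59 and 7.67 in wildtype DRGs (difference -0.82, SE 0.122, and -0.53 with normexp). 2610028D06Rik had 7.52, 7.51, 7.64 and 7.67 in FD and 8.51, 8.25, 8.88 and 8.31 in wildtype DRGs (-0.90, SE 0.130). Both had all FD samples below all wildtype samples. The 2610028D06Rik probe lies between the second and the third Cep164 probe on the same strand. Whether it measures a separate transcript was not assessed. C1qtnf5, a secreted protein with a C1q domain, was at 0.33 (SE 0.0837) with separate groups and was not called.

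Some probes that were too dim for the comparison in FD DRGs were clear in wildtype DRGs. The transcript 6720432D03Rik was well above background on 4 of 4 wildtype arrays and on 0 of 4 FD arrays. Its wildtype signals were 6.36, 6.44, 6.97 and 6.93, and the FD signals of 2.59, 3.61, 2.94 and 2.63 were not well above background. Taking the lowest signal of probes well above background on each FD array in place of its own (mean 4.50), it was at least 4.51-fold higher in wildtype DRGs. Tmprss13, a serine protease of epithelia, was the reverse, with 4 of 4 FD arrays (5.77 to 6.27) and 1 of 4 wildtype arrays (4.40 to 5.01) well above background. Probes of Ccdc153 and Cxcr5 were above background on 1 wildtype array and 0 FD arrays, and those of Trim29 and 1 probe each of Hinfp and Dscaml1 on 1 FD array and 0 wildtype arrays, so no fold is given for them.

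Probes of a gene often differed. Of 17 genes of the segment with 2 or more compared probes, 5 had a called probe, and in 1 of these 5 (20%), Clmp, all of them were called. On the whole array this held for 42 of 239 such genes (17.6%), so the share in the segment was near that of the array. The difference between the probes of a gene was over 1 in Nlrx1 (1.19) and Sorl1 (1.02), then 0.904 in C2cd2l, 0.477 in Mcam and 0.428 in Cep164, with a median of 0.175 over the 17 genes. Some probes of a gene overlap in position, as in Cep164, Abcg4 and Fxyd2. In Sorl1, Nlrx1 and C2cd2l, where 1 of 2 probes was called, the called probe lay nearer the 3′ end of the transcript in each, and over all such genes of the array it did so in 85 of 131 (64.9%). With so few genes this is a description only. The called probes had a median GC content of 45% (35 to 55%), as had those not called (23.3 to 73.3%).

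**Figure D4:**
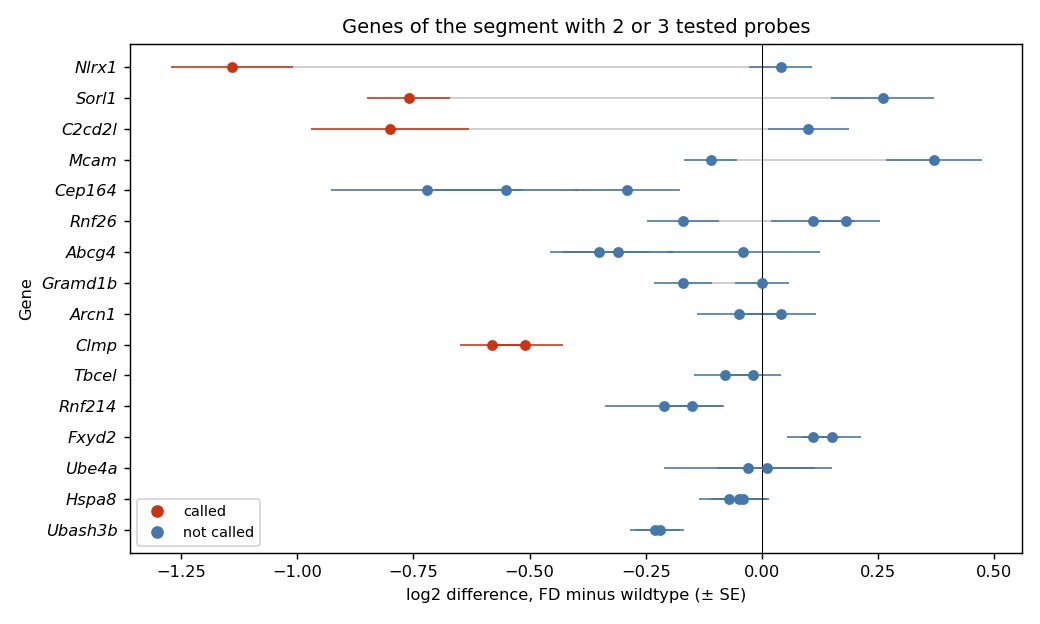
Log2 difference (horizontal axis, FD minus wildtype, bars are SE from limma, 4 samples per group) of the compared probes for 16 genes with 2 or more probes, called probes in red and others in blue, genes ordered by the gap between their probes. The gap is widest in Nlrx1, Sorl1 and C2cd2l, and the Clmp probes lie together.

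The promoters of called genes differed widely in composition, and 5 are shown as the 250 bases before the gene start in the RefSeq table (GRCm38.p6, on the strand of the gene), namely those of Tmem25 and Sorl1, of Ift46 as the neighbor of Tmem25, and of Nlrx1 and Jhy as examples of large negative and positive differences. Where a gene has several starts in the table, the one furthest upstream was used. They were searched on both strands for the E-box CACGTG, the cAMP response element TGACGTCA and the AP-1 site TGANTCA, and capitals mark a match.
Tmem25, chr9:44799248-44799497: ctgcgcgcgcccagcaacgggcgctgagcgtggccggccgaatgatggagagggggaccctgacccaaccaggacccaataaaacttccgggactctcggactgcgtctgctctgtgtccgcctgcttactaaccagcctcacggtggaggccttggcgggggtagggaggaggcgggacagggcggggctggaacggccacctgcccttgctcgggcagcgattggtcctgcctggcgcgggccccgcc
Ift46, chr9:44772759-44773008: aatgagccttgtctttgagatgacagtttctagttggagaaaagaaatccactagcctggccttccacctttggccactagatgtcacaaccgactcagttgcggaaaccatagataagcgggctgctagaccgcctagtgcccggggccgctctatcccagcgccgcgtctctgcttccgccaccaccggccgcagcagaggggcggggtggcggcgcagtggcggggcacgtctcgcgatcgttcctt
Sorl1, chr9:42124298-42124547: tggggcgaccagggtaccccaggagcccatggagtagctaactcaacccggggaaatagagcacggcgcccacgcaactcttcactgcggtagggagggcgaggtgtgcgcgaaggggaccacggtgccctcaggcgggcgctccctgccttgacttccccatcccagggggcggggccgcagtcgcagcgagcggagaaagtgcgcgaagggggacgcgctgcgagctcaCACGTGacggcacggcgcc
Nlrx1, chr9:44268600-44268849: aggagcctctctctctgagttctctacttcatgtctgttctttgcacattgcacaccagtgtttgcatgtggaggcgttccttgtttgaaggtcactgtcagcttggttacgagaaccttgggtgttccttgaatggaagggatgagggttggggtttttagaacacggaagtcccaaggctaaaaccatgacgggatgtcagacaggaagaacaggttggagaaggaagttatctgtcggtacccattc
Jhy, chr9:40964554-40964803: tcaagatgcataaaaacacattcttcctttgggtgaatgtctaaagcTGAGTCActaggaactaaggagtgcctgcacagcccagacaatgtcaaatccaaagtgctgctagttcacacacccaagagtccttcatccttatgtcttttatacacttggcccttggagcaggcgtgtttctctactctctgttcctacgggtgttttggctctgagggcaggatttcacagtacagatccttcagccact
The promoters of Tmem25 (69.6% GC) and Sorl1 (69.6% GC) were rich in CG pairs, with 22 and 26 of them, and those of Jhy (46.4% GC) and Nlrx1 (48.4% GC) were not, with 2 and 5. CACGTG was found in 3 of the 42 promoters listed for genes of the segment (7.14%), against 6.04% of 27025 promoters in the table, and among the called genes only in Sorl1, 19 bases before the start. TGACGTCA was found in 2 of 42 (4.76%, against 1.6%) and in 0 of the 8 promoters of called genes. TGANTCA was in 1 of 42 (2.38%, against 6.85%), which was Jhy, 203 bases before the start. No motif was shared by the promoters of called genes, and a match is a description of letters only.

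Markers of the labelled tissue were clear in both groups. All 16 markers of sensory neurons were compared, with mean levels of 14.27 to 14.32 in FD and 14.27 to 14.41 in wildtype samples. Of their 28 probes 1 was called higher, that of Tac1 at 0.34 (SE 0.0752), beside 1.96% of all compared probes. All markers of satellite glia (7), Schwann cells (9), fibroblasts (7) and endothelium (7) were compared and 0 were called, with medians of -0.0251, -0.114, -0.0943 and -0.128. Red cell markers had lower mean levels in FD samples, at 11.65 to 12.36 against 12.13 to 12.81, with 0 of 6 called and a median of -0.405. Of 7 skeletal muscle genes 1 was compared. The part of these small shifts in the differences of the segment was not tested.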

How the data were processed

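RNA of DRGs L3 to L5 was labelled with Cy3 and hybridized to 8 arrays, 4 with FD and 4 with wildtype samples. The spot files hold intensity values that Agilent Feature Extraction 10.7.3.1 had corrected for background before they were deposited, and their headers name mm9. A deposited log2 table, which the authors had quantile normalized in GeneSpring, served as an alternative and holds 109 probes of the segment.

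Control spots and outlier spots (93 to 221 an array, with 0 saturated) were dropped, log2 intensities of a probe's spots were averaged, and limma 3.58.1 (R 4.3.3) was used for quantile normalization of 55681 probes. On each array 56.5 to 60.8% of probes were well above background, and the number of arrays limits the precision. A linear model with empirical Bayes in limma compared FD with wildtype samples over the 29432 probes that passed background on all 8 arrays in at least 0.5 of their spots, with Benjamini-Hochberg adjustment over these. Differences are FD minus wildtype. The labels give no litters or days, so the spread between samples may be partly technical. The fit was tested on simulated data.

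Of the 130 probes, 90 were named through RefSeq and the others as in the files. For 6 probes the position spans more than 100 bases. Members, gene lists and the rule for named genes were chosen with earlier results of these data known. The rule takes Tmem25, Sorl1, genes with a called probe, genes whose probes differ by more than 1, genes not called with separate groups and a difference of at least 0.3, and the largest differences of each role. Other genes were named after their values were seen. Medians and mean levels of gene lists take the brightest compared probe of each gene. One gene of the segment stays in the counts but is not reported here.

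Alternatives were scaling to the 75th percentile, normexp correction (offset 50) of mean spot signals, other filters on dim probes, the replicate number or slide row as a block, array weights, the methods' t-test, the authors' table, and leaving out each sample.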

Additional observations from a re-analysis of the deposited data

Results flagged for a closer look

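Single samples stood apart from the other 3 of their group in 2 of 44 combinations of a named probe and a group, where chance gives about 1 in 20. For Bcl9l, FD sample 4 had a log2 signal of 5.89 beside 6.39 to 6.47 in the other FD samples, a gap of 0.861 of the range of the group. For the first probe of C2cd2l, wildtype sample 2 had 5.89 beside 6.53 to 6.65, a gap of 0.841 of the range. Both are dim signals. Without FD sample 4 the difference of Bcl9l was -0.77, against -0.91 with all samples, and it passed the threshold in neither case.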

How the results depend on the processing

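The number of called probes in the segment was 14 and that over all compared probes 904. Array weights gave 28 and 2102, the methods' t-test 5 and 266, and the replicate number as a block 8 and 284. In the fits that left out 1 sample each the segment had 9 to 16 called probes and the array 408 to 1043, lowest for the segment without FD sample 4. On the array the count fell by more than 1.5 times without FD sample 1 (440), 2 (408), 3 (491) or 4 (472) and without wildtype sample 3 (535) or 4 (531). Without a filter on background, which tests more probes, 556 were called on the array and 13 in the segment. The other settings gave 13 to 17 in the segment and 824 to 1088 on the array. Same-numbered samples of the groups deviated with correlations of -0.25 to 0.06, and 1 of 4 FD samples correlated best with its own number. With 4 samples in a group these values cannot decide whether the numbers pair the samples. Of 22 named probes under 17 alternatives, 1 reversed, the second Nlrx1 probe at -0.00143 with normexp against 0.04. Jhy and Tmem25 stayed past the threshold in all 17, and 11 of the 14 called probes lost it in at least 1, Tecta in 14, C2cd2l and Ift46 in 10 and Cbl in 8. The causes were not tested. At an unadjusted p under 0.05 in limma, 40 of 93 probes of the segment and 5194 of 29432 on the array passed.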

Other observations

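Among the probes of the same window that were left out of the segment, 1 of 11 compared probes named by a genome interval was called. Of the genes left out by name, 3 of 12 compared probes were called, beside 3.07% of all compared probes. As the window was picked for its calls, nothing is read from these counts. Of the 25 bins of 2 Mb on chromosome 9 with at least 20 compared probes, the highest share of called probes was 25%. It was in the first 2 Mb of the segment, with 5 of 20 probes. The next was a bin 34.4 Mb from the Tmem25 probe, with 5 of 25 (20%). Nothing is read from this order either.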
